A study of Mus musculus with 6 samples.

Results

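The 77 genes whose symbols are Mrpl or Mrps followed by a number are named for proteins of the mitochondrial ribosome, and they were compared between CPN and control cells. They are the entries with such a symbol, out of 23282 gene entries. Of these genes, 48 carry the large-subunit prefix Mrpl and 29 the small-subunit prefix Mrps. All 77 had counts above 0 in all 6 libraries and passed the filter on low counts, with the total over the 6 libraries lying between 413 and 12720 counts per gene.

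Mitochondria keep their own ribosome, which translates the few messages transcribed from mitochondrial DNA into core subunits of the respiratory chain and ATP synthase. All of its proteins are encoded in the nucleus, made in the cytosol and imported, and they assemble on RNAs made inside the organelle. Osteoclasts are rich in mitochondria, and their formation is known to come with a rise in mitochondrial biogenesis.

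RAW 264.7, a mouse macrophage cell line, forms multinucleated osteoclasts when driven to differentiate. RNA was taken at day 5 of osteoclast differentiation from 3 samples marked CPN and 3 controls, and the 3′ ends of transcripts were sequenced. Both groups carry the same differentiation label, and the series is titled for a chaperonin, a protein that folds other proteins; its source, dose and time of addition, and the differentiation agent, are not in the labels. Since no label states that the samples are separate cultures, a p-value here speaks only for the scatter among these 6 libraries, and that scatter may be technical.

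Library totals were 8346492, 8267719 and 8423438 counts in CPN cells and 9713938, 8311602 and 7957228 counts in control cells. CPN 1 and control 3 stood apart from the other libraries: among 707 genes averaging 6 to 12 counts, 14% and 23.8% of values were 0 in these libraries, against 36.9% to 41.2% in the others. Poisson sampling at those mean counts, taken over all 6 libraries, would leave 0.0538% of values at 0, so all 6 libraries held far more zeros than that. The counts thus vary more than independent draws around 1 mean shared by all libraries would. Because that mean pools CPN and control, differences between the groups add to the zeros. The part that is scatter within a group, and its cause, were not tested. The 5 macrophage markers Adgre1, Csf1r, Cd68, Lyz2 and Itgam were present in all libraries, with summed levels of 1995 to 2617 CPM (counts per 1000000 counts of TMM-scaled library size) in CPN cells and 1701 to 2199 CPM in control cells. They moved unequally: Adgre1 was 3.45-fold and Itgam 3.94-fold higher in CPN cells (edgeR adjusted p = 0.000609 and 5.44e-05), and the other 3 did not pass. The 5 osteoclast markers Ctsk, Acp5, Dcstamp, Ocstamp and Atp6v0d2 summed to 730.7 to 1184 CPM in CPN cells and 3142 to 3434 CPM in control cells, and the 3 markers of dividing cells Mki67, Top2a and Ccnb1 to 109.5 to 145.4 CPM in CPN cells and 363.9 to 582.2 CPM in control cells. Of 14 markers of stromal, granulocytic, T, epithelial and endothelial cells, 3 were at 0 in all libraries (Elane, Krt8 and Cdh5). The 14 together summed to 30.1 to 54.4 CPM in CPN cells, mostly Dcn and S100a8, and 0.785 to 4.67 CPM in control cells. In these bulk samples, fewer cells of a type and less RNA per cell cannot be told apart. The part of these differences in the results below was not tested.

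Most mitochondrial ribosomal protein genes did not pass the test between CPN and control cells. In the quasi-likelihood test of edgeR, adjusted by Benjamini-Hochberg over 11092 genes and read at 0.05, Mrpl24 was higher in CPN cells, Mrpl17, Mrpl41, Mrpl43 and Mrps35 were lower, and 72 members did not pass. The 5 called genes are 6.49% of the members, whereas 14.0% of all tested genes were called. By direction, 1 of 77 members was higher where 7.62% of all genes were, and 4 of 77 were lower where 6.39% of all genes were. The share that was lower is thus near that of all genes, and the total is below it. Before adjustment, 19 members (24.7%) had a p under 0.05, against 26.3% of all tested genes.

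The log2 fold changes of the members, CPN over control, lay around 0, in a narrower band than those of all genes. Each member had at least 413 counts in total, whereas the filter admits genes with about 10 counts in each of 3 libraries. The comparison with all genes was not matched for level. They ranged between -1.09 and 0.82 with a median of -0.08, beside a median of -0.01 over all tested genes. The interquartile range lay between -0.35 and 0.25, against -0.42 and 0.41 for all genes. It lay between -0.47 and -0.03 for respiratory chain and ATP synthase genes, and between 0.06 and 0.30 for cytosolic ribosomal protein genes. A difference of over 1 on the log2 scale was fitted for 2 members (2.6%) and for 19.3% of all genes. The 95% interval of the fold change stayed within 1 log2 unit of no change for 54 members (70.1%) and for 38.6% of all genes. Some related groups were at least as narrow. The share within 1 log2 unit was 81.2% for respiratory chain and ATP synthase genes and 98.8% for cytosolic ribosomal protein genes. The share of estimates beyond it was 2.5% and 0%. The 73 tested partner genes of mitochondrial translation, described below, were wider than the members, with 42.5% of intervals within 1 log2 unit and 4.11% of estimates beyond it. For the 54 members, a difference of 2-fold or more between the groups lies outside the interval. The members' SEs, between 0.17 and 0.48, limit what could be called at this depth and spread.

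**Figure D1:**
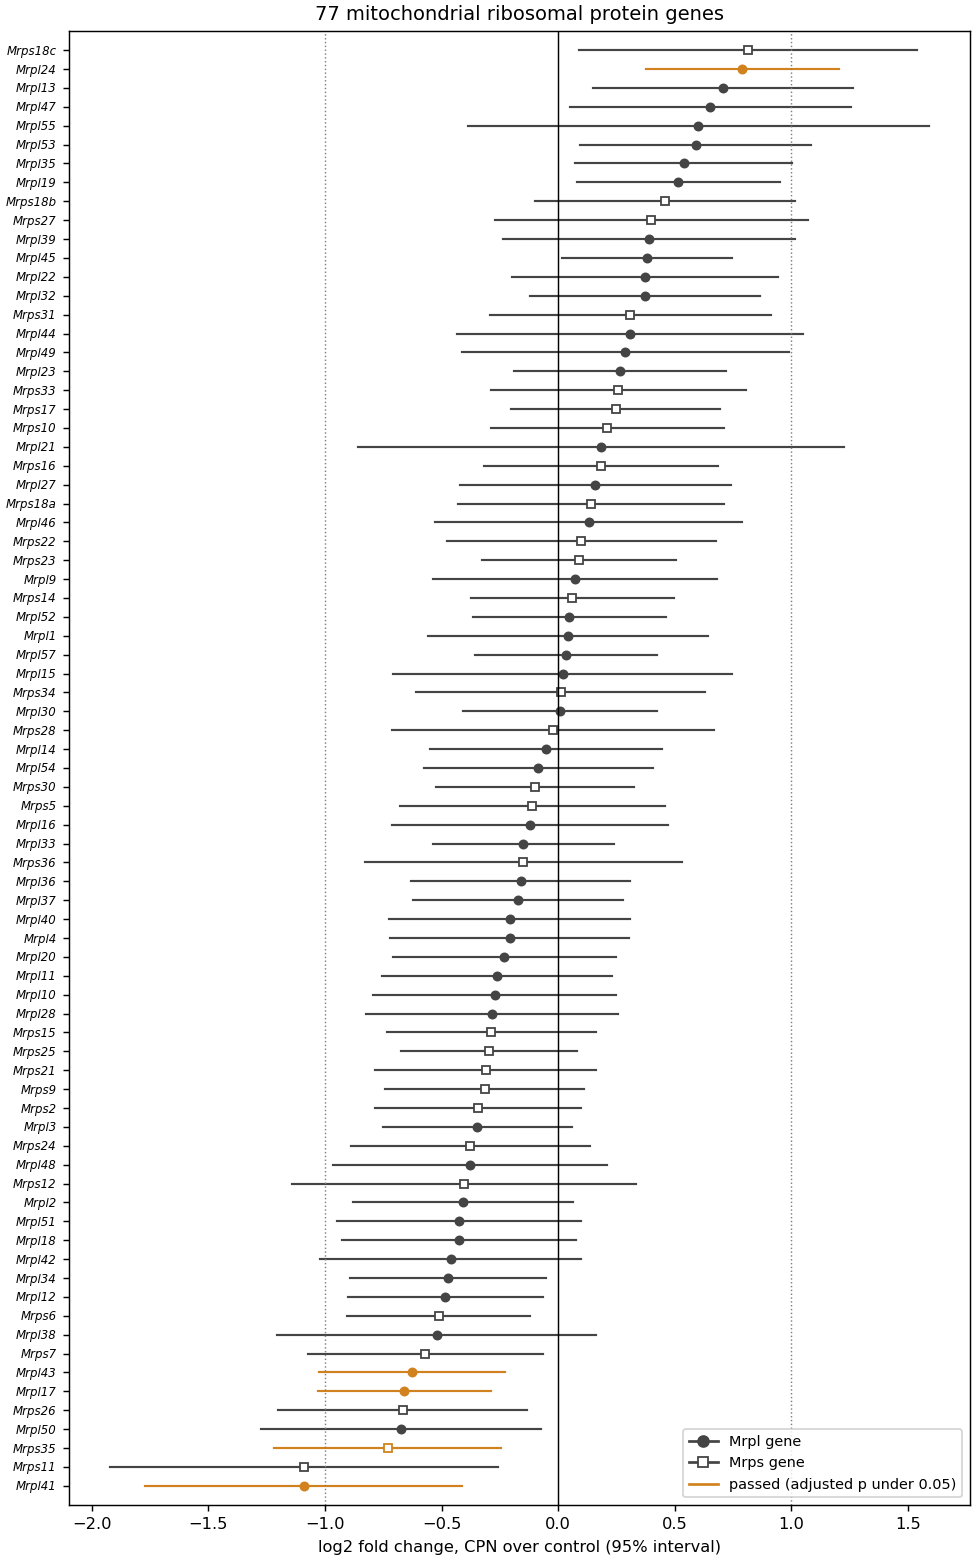
Log2 fold change of the 77 genes, CPN over control, with a 95% interval derived from the edgeR test, sorted from highest to lowest. Circles are Mrpl genes, squares are Mrps genes, orange marks the 5 that passed an adjusted p of 0.05, and the dotted lines stand at -1 and 1; 36 estimates lie above 0 and 41 below.

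The numbers of positive and negative fold changes were alike: 36 members were positive and 41 negative. The CPN values lay all above the control values for 10 members and all below for 15. Over all tested genes these shares were 16.9% and 15.7%, or 32.6% for both together, and 25 of 77 members is 32.5%. The count of members whose groups did not overlap was therefore at the level of all genes. The sign count depends on the scaling: with library totals in place of TMM factors the median of all genes moved to -0.13, and 26 members were positive and 51 negative. The members' median was then -0.21, which is 0.08 below that of all genes, as it was with TMM.

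Mrpl24 was the member that rose. It encodes the counterpart of bacterial L24, a large-subunit protein next to the tunnel through which the new protein leaves the ribosome. Its level was 158.3, 117.6 and 127.5 CPM in CPN 1, 2 and 3, against 73.3, 76.4 and 83.8 CPM in control 1, 2 and 3. The lowest CPN library stood above the highest control library. The means were 134.5 ± 21.2 CPM in CPN cells and 77.8 ± 5.40 CPM in control cells (SD, n = 3 each), a 1.73-fold difference, and edgeR gave a log2 fold change of 0.79 ± 0.19 (SE) with an adjusted p of 0.0150. The call was lost without CPN 1 and without control 1. On GRCm38 the gene lies at chr3:87919506-87923672, on the plus strand, and its last 500 bases overlap an exon of the opposite-strand gene Rrnad1. Rrnad1 was also higher, at 168.8 ± 16.9 CPM in CPN cells and 108.4 ± 1.86 CPM in control cells (SD, n = 3 each; log2 fold change 0.64, edgeR adjusted p = 0.0253). The sources used here do not say that counting used strand, so reads from the shared stretch cannot be assigned to either gene, and the value of Mrpl24 is uncertain.

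Mrpl17 fell, although its protein, the counterpart of bacterial L17, sits at the same tunnel exit. It stood at 125.5, 132.7 and 127.0 CPM in CPN 1 to 3, against 177.1, 200.3 and 231.2 CPM in control 1 to 3. The groups did not overlap, and the 3 CPN values were close to each other. The means of 128.4 ± 3.77 CPM in CPN cells and 202.8 ± 27.1 CPM in control cells (SD, n = 3 each) put control 1.58-fold higher, and the log2 fold change was -0.66 ± 0.17 (SE; edgeR adjusted p = 0.0217). The call was lost without control 3 and without any 1 of the CPN libraries. The gene lies at chr7:105803206-105811099, minus strand, and its body holds the pseudogene Gm15645, which had 307 counts against 8538 for Mrpl17.

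The other large-subunit genes that fell, Mrpl41 and Mrpl43, encode proteins with no counterpart in the bacterial ribosome. Mrpl41 stood at 23.8, 30.5 and 42.6 CPM in CPN 1 to 3, against 83.6, 39.7 and 83.1 CPM in control 1 to 3. Control 2 was below the highest CPN library, so the groups overlapped. Its decrease, -1.09 ± 0.31 on the log2 scale (SE; edgeR adjusted p = 0.0349), was the largest among the members, with means of 32.3 ± 9.52 CPM in CPN cells and 68.8 ± 25.2 CPM in control cells (SD, n = 3 each). The call was lost without CPN 1, without CPN 2, without control 1 and without control 3. Mrpl41 lies at chr2:24974117-24975098, minus strand. Mrpl43, at chr19:45004829-45006442 on the minus strand, had 91.3, 96.0 and 86.5 CPM in CPN 1 to 3, against 157.1, 145.7 and 120.3 CPM in control 1 to 3. Here the groups did not overlap, and the spread was larger among the controls. Its means were 91.3 ± 4.77 CPM in CPN cells and 141.0 ± 18.8 CPM in control cells (SD, n = 3 each), and the log2 fold change was -0.63 ± 0.18 (SE; edgeR adjusted p = 0.0380). The call was lost whichever library was left out.

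Mrps35, a small-subunit protein specific to mitochondria, was the small-subunit gene that fell. It had 40.8, 51.0 and 34.6 CPM in CPN 1 to 3, against 76.0, 60.6 and 73.1 CPM in control 1 to 3. The highest CPN library lay below the lowest control. With means of 42.1 ± 8.25 CPM in CPN cells and 69.9 ± 8.18 CPM in control cells (SD, n = 3 each), the log2 fold change was -0.73 ± 0.23 (SE; edgeR adjusted p = 0.0472). The call was lost without any library but control 2. The gene lies at chr6:147042764-147073991, plus strand. Without both CPN 1 and control 3, none of the 5 called genes passed, with edgeR adjusted p-values from 0.142 to 0.381, while 446 genes passed overall.

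**Figure D2:**
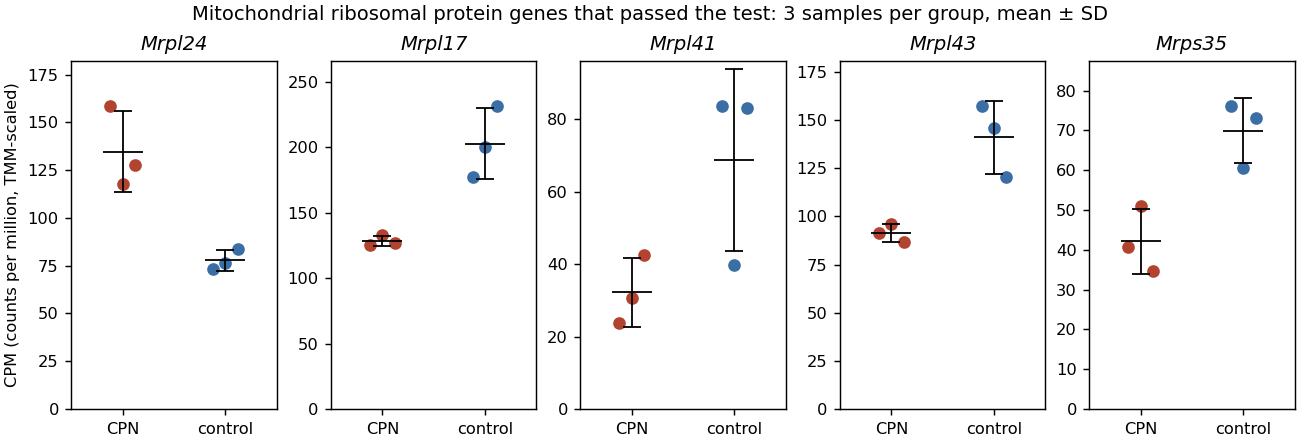
Level in CPM (y axis) of the 5 called genes in each library, with CPN left of control; points are libraries and lines are means ± SD (n = 3). Mrpl41 is the gene whose groups overlap, through control 2.

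The promoters of the 4 called genes that have a window in the RefSeq promoter table (GRCm38.p6) are shown because the genes moved in opposite directions. Mrpl43 and Mrpl17 hold matches to motifs of factors known to act on genes for mitochondrial proteins, and Mrpl24 and Mrpl41 hold none. Each line gives the 250 bases before the RefSeq start, 5′ to 3′ on the gene's strand. Capitals mark CCGGAAG, the core bound by ETS factors such as GABPA, and GCGCATGCG, the core bound by NRF1. Both Mrpl43 matches are ETS cores, beginning 56 and 12 bases before the start, and Mrpl17 has an ETS core 237 bases and an NRF1 core 11 bases before it. The windows are chr19:45006443-45006692 (minus) for Mrpl43, chr7:105811088-105811337 (minus) for Mrpl17, chr3:87919294-87919543 (plus) for Mrpl24 and chr2:24975099-24975348 (minus) for Mrpl41.
Mrpl43: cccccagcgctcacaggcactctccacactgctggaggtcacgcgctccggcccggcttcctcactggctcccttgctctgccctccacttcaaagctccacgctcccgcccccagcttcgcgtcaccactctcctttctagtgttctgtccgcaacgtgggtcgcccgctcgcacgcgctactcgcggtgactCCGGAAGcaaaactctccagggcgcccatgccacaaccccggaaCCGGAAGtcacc
Mrpl17: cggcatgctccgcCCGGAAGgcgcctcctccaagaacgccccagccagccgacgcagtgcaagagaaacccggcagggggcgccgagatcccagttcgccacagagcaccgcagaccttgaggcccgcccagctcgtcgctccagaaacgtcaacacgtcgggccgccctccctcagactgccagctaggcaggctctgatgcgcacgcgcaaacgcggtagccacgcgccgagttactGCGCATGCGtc
Mrpl24: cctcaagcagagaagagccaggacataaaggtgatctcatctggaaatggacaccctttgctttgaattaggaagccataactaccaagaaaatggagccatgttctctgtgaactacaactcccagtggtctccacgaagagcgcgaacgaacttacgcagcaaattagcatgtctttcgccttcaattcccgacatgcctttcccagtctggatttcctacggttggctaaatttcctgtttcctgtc
Mrpl41: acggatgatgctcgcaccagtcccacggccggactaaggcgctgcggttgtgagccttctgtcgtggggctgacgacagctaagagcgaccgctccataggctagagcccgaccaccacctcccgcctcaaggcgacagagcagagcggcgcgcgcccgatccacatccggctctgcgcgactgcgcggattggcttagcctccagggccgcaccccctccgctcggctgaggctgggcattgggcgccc

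By position in the ribosome, 1 of 8 genes near the exit tunnel rose and 1 fell, and 0 of 3 stalk genes passed. Over all tested genes 14.0% were called, and groups of 8 and 3 genes are too small to set against that share. No difference between positions was tested. Besides Mrpl24 and Mrpl17, the 8 exit-tunnel genes include Mrpl47, which had 45.1 ± 8.19 CPM in CPN cells and 28.6 ± 8.36 CPM in control cells (SD, n = 3 each; log2 fold change 0.65 ± 0.28, edgeR adjusted p = 0.151). They also include Mrpl45, which anchors the ribosome to the inner membrane. Mrpl45 had 161.9, 187.2 and 166.0 CPM in CPN 1 to 3, against 133.7, 137.4 and 124.2 CPM in control 1 to 3, with a log2 fold change of 0.38 ± 0.17 that did not pass (edgeR adjusted p = 0.164). Its groups did not overlap, and the difference was small. The remaining 4 exit-tunnel genes, Mrpl22, Mrpl23, Mrpl39 and Mrpl44, had log2 fold changes between 0.26 and 0.39. In all, 7 of the 8 were positive, where 49.5% of all tested genes were, and their median was 0.38, beside -0.01 over all genes. With library totals alone 7 were again positive, and without CPN 3 it was 6. In edgeR 3 higher and 1 lower had an unadjusted p under 0.05 (50%, against 26.3% of all tested genes). With library totals alone it was 1 higher and 1 lower. A group of 8 genes is too small to set against that share.

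The stalk draws translation factors to the large subunit. None of its 3 genes passed in edgeR, DESeq2 or limma-voom, 1 had an unadjusted p under 0.05 in edgeR, and all were negative. Over all tested genes, 26.3% had an unadjusted p under 0.05 in edgeR and 49.5% were positive. Mrpl12, its flexible arm, had 78.8, 97.7 and 112.6 CPM in CPN 1 to 3, against 147.2, 125.5 and 131.5 CPM in control 1 to 3 (log2 fold change -0.48 ± 0.19, edgeR adjusted p = 0.127). Its groups did not overlap, while those of Mrpl11 (-0.26) and Mrpl10 (-0.27) did. Of the 6 genes assigned to the central protuberance, a projection at the top of the large subunit, none passed in these tools, 0 had an unadjusted p under 0.05, and 4 were negative. They include Mrpl18, with 78.2 ± 18.7 CPM in CPN cells and 104.9 ± 19.97 CPM in control cells (SD, n = 3 each; -0.42 ± 0.23, edgeR adjusted p = 0.279). Mrpl38 and Mrpl48 had log2 fold changes of -0.52 and -0.38 (edgeR adjusted p = 0.338 and 0.425).

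Among members that did not pass, the largest positive estimates were those of Mrps18c and Mrpl13. Mrpl13, the counterpart of bacterial L13, had 51.4, 52.9 and 82.0 CPM in CPN 1 to 3, against 35.2, 46.7 and 32.1 CPM in control 1 to 3. The groups did not overlap, and CPN 3 was well above the other CPN libraries. The log2 fold change was 0.71 ± 0.26 (edgeR adjusted p = 0.0911). Mrps18c is 1 of 3 paralogs of bacterial S18. Mrps18b and Mrps18c are in the small subunit, whereas Mrps18a, despite its name, is in the large one. Mrps18c had 28.7, 52.0 and 27.3 CPM in CPN 1 to 3, against 15.2, 19.4 and 26.8 CPM in control 1 to 3. CPN 2 was high, and the lowest CPN and highest control values were close together. Its log2 fold change of 0.82 ± 0.34 had an edgeR adjusted p of 0.138. The other paralogs had values of 0.46 for Mrps18b and 0.14 for Mrps18a, both with overlapping groups.

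Mrps11 had the second most negative estimate. It encodes the counterpart of bacterial S11, on the platform of the small subunit. It had 15.2, 10.7 and 6.45 CPM in CPN 1 to 3, against 19.8, 26.6 and 22.7 CPM in control 1 to 3. All CPN values lay below all control values, but the SE was large and the estimate of -1.09 ± 0.39 on the log2 scale did not pass (edgeR adjusted p = 0.0824). Mrps11 (chr7:78783119-78792989, plus) overlaps Mrpl46 (chr7:78775236-78783531, minus) at their 5′ ends. The level of Mrpl46 was 35.8 ± 3.45 CPM in CPN cells and 32.7 ± 12.8 CPM in control cells (SD, n = 3 each; 0.13, edgeR adjusted p = 0.845).

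The 3 members with the highest mean CPM, a tag count not divided by length, were Mrps6, Mrpl17 and Mrpl52. Mrps6, the counterpart of bacterial S6, had 189.8, 250.9 and 168.0 CPM in CPN 1 to 3, against 300.3, 272.6 and 295.8 CPM in control 1 to 3. The groups did not overlap, and the estimate of -0.51 ± 0.18 on the log2 scale had an edgeR adjusted p of 0.0837. It passed in DESeq2, in limma-voom, with library totals alone and without CPN 2. Mrps6 (chr16:92058270-92112227, plus) overlaps exons of the same-strand gene Slc5a3, a myo-inositol transporter that fell by 0.58 on the log2 scale (edgeR adjusted p = 0.0270). The last 500 bases of Mrps6 do not lie in a Slc5a3 exon. Reads from elsewhere in the 2 genes may still not be fully separate. Mrpl52, which is specific to mitochondria, had 165.2 ± 27.9 CPM in CPN cells and 159.7 ± 21.8 CPM in control cells (SD, n = 3 each). Its groups overlapped, with a log2 fold change of 0.05 and a 95% interval between -0.36 and 0.46.

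By subunit, placing Mrps18a and Mrps30 in the large subunit where their proteins sit and leaving out Mrps36, 1 of 50 large-subunit genes rose and 3 fell (8% called), and 0 of 26 small-subunit genes rose and 1 fell (3.85% called) in edgeR, against 14.0% of all genes called. Among the small-subunit genes 1 higher and 5 lower had an unadjusted p under 0.05 (23.1%, against 26.3% of all tested genes). DESeq2 called 0 higher and 2 lower, and limma-voom 0 higher and 3 lower. The median log2 fold change was -0.07 in each subunit. Without control 2 it was -0.10 for the large and -0.28 for the small subunit, and over the fits without 1 library it lay between -0.10 and 0.0017 for the large and between -0.28 and -0.02 for the small subunit. Mrps36, assigned in later work to the 2-oxoglutarate dehydrogenase complex, did not pass (-0.15 ± 0.31, edgeR adjusted p = 0.825). Of 44 genes with a bacterial counterpart, 1 rose and 1 fell (4.55% called), with a median of -0.13. Of 28 mitochondria-specific genes, 0 rose and 3 fell (10.7% called, against 14.0% of all genes), with a median of -0.04. None of these passed without control 1, control 3, CPN 1 or CPN 2. In this class 2 higher and 5 lower had an unadjusted p under 0.05 (25%, against 26.3% of all tested genes). DESeq2 called 0 and 3, and limma-voom 0 and 4. The other 5 members were placed in neither class, and the difference between the classes was not tested.

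Summed over the 77 members, levels were 4924, 5171 and 4975 CPM in CPN 1 to 3, against 5730, 5072 and 5465 CPM in control 1 to 3. Control 2 lay within the CPN range, so the groups overlapped. The small-subunit genes summed to 1604 ± 53.0 CPM in CPN cells and 1828 ± 155 CPM in control cells, and the large-subunit genes to 3397 ± 83.8 CPM in CPN cells and 3569 ± 177 CPM in control cells (SD, n = 3 each). The ratio of large-subunit to small-subunit sums, which no scaling of a library can move, was 2.12, 2.10 and 2.13 in CPN 1 to 3, against 1.92, 2.05 and 1.91 in control 1 to 3. The lowest CPN ratio was above the highest control ratio, by a margin smaller than the range of the controls. This rests on Mrps6, which overlaps exons of Slc5a3, though not with its last 500 bases. Without Mrps6 the ratios were 2.42, 2.47 and 2.39 in CPN 1 to 3, against 2.26, 2.45 and 2.26 in control 1 to 3, and the groups overlapped. These sums are tag counts, not amounts of protein, and no test was run on them.

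**Figure D3:**
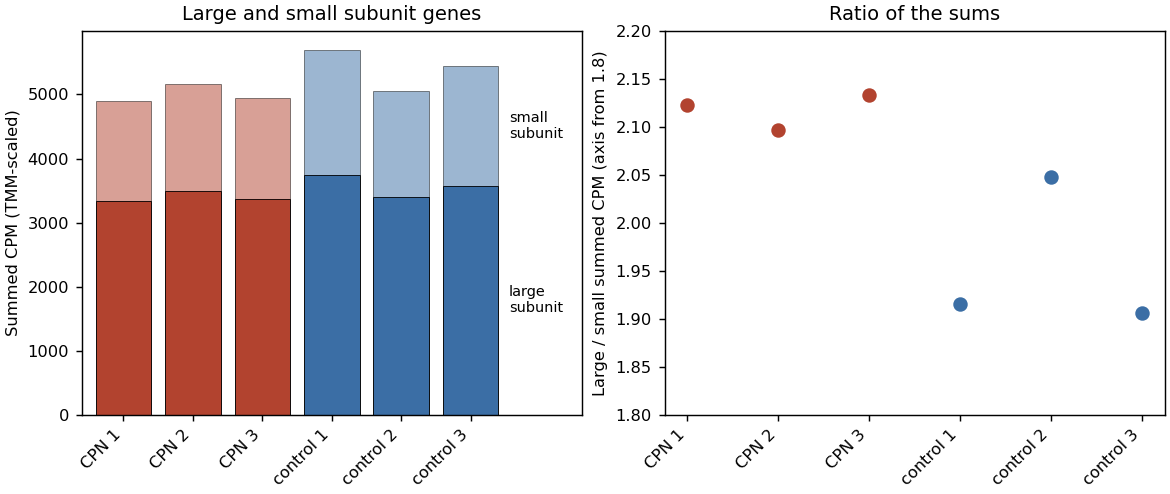
Left, summed CPM (y axis) of the large-subunit (dark) and small-subunit (light) genes in each library, CPN in red and control in blue; right, the ratio of the large-subunit to the small-subunit sum in each library. The ratio axis starts at 1.8; the 3 CPN ratios lie between 2.10 and 2.13 and the 3 control ratios between 1.91 and 2.05.

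None of the 6 measured mitochondrial ribosome proteins whose symbols do not match the rule passed in edgeR, DESeq2 or limma-voom. In edgeR 0 had an unadjusted p under 0.05, against 26.3% of all tested genes. Ptcd3, a small-subunit protein with RNA-binding repeats, had 36.5, 36.0 and 41.7 CPM in CPN 1 to 3, against 57.6, 46.8 and 51.4 CPM in control 1 to 3. Its groups did not overlap, but the difference, -0.45 ± 0.22 on the log2 scale, did not pass (edgeR adjusted p = 0.220). Dap3, a GTP-binding protein of the small subunit, had 96.8 ± 4.46 CPM in CPN cells and 79.8 ± 16.6 CPM in control cells (SD, n = 3 each; 0.28 ± 0.21, edgeR adjusted p = 0.446). Chchd1, Ict1, Gadd45gip1 and Aurkaip1 had log2 fold changes of 0.22, 0.24, -0.30 and -0.15.

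Of 73 tested partner genes of mitochondrial translation (the 6 above, translation factors, mitochondrial tRNA synthetases, assembly and membrane factors, and transcriptional regulators), 0 rose and 1 fell. That is 1.37%, against 14.0% of all genes, with a median log2 fold change of -0.12. An unadjusted p under 0.05 was found for 2 that were higher and 7 that were lower (12.3%, against 26.3% of all tested genes). DESeq2 called 1 higher and 1 lower, and limma-voom 0 higher and 1 lower. The gene was Rpusd4, a pseudouridine synthase that modifies mitochondrial ribosomal RNA in human cells. It had 33.6, 29.3 and 24.2 CPM in CPN 1 to 3, against 50.4, 52.7 and 51.4 CPM in control 1 to 3. The groups were well apart, and the log2 fold change was -0.83 ± 0.23 (edgeR adjusted p = 0.0320); the call held without CPN 1 and was lost without any 1 of the other libraries. None of 11 translation factors passed in these 3 tools. In edgeR 3 had an unadjusted p under 0.05 (27.3%, near the 26.3% of all tested genes). Of the 11, 8 were negative, where 49.5% of all tested genes were positive. The elongation factor Tufm had 26.4 ± 9.43 CPM in CPN cells and 40.9 ± 2.57 CPM in control cells (SD, n = 3 each; -0.63 ± 0.29, edgeR adjusted p = 0.190). None of the 20 tRNA synthetase and amidotransferase genes passed in these tools. In edgeR 3 had an unadjusted p under 0.05 (15%, against 26.3% of all tested genes), and 14 were negative.

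Of the regulators known to act on genes for mitochondrial proteins, 0 of 12 tested passed in edgeR, 0 in limma-voom and 1 in DESeq2. In edgeR 2 had an unadjusted p under 0.05 (16.7%, against 26.3% of all tested genes). The 2 were Tfb2m and Myc. Tfb2m, a mitochondrial transcription factor, had 31.1, 17.0 and 27.9 CPM in CPN 1 to 3, against 46.2, 51.8 and 36.8 CPM in control 1 to 3. Its groups did not overlap, and the log2 fold change was -0.82 ± 0.28 (edgeR adjusted p = 0.0750). Myc, a growth factor-induced transcription factor, had 16.3, 13.9 and 14.5 CPM in CPN 1 to 3, against 5.10, 5.75 and 8.18 CPM in control 1 to 3. The groups did not overlap, at low counts. The log2 fold change was 1.23 ± 0.44, with an adjusted p of 0.0827 in edgeR and 0.0452 in DESeq2. Ppargc1b, a coactivator of mitochondrial biogenesis known to act in osteoclasts, had 37.0 ± 6.04 CPM in CPN cells and 53.3 ± 12.3 CPM in control cells (SD, n = 3 each; -0.53 ± 0.25, edgeR adjusted p = 0.197). Its groups did not overlap. Nrf1 (0.65), Gabpa (0.40), Yy1 (0.23), Esrra (0.17) and Tfam (-0.28) had log2 fold changes with edgeR adjusted p-values of 0.309, 0.563, 0.505, 0.744 and 0.619. Ppargc1a had 2 counts in CPN 1 and 0 in the other libraries and was not tested.

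The nuclear genes of the respiratory chain and ATP synthase, and the cytosolic ribosomal protein genes, were set beside the members with no test of the difference. Of 80 tested respiratory chain and ATP synthase genes, 1 rose and 9 fell (12.5% called, against 14.0% of all genes), with a median log2 fold change of -0.27 and 66 of 80 negative. In edgeR with TMM, 2 higher and 24 lower had an unadjusted p under 0.05 (32.5%, against 26.3% of all tested genes). With library totals alone 0 rose and 16 fell, and with 1 library left out 0 to 2 rose and 1 to 16 fell: 1 fell without control 3 or without CPN 2, 2 without control 1, 5 without CPN 1 and 16 without control 2. Of 81 tested cytosolic ribosomal protein genes, 3 rose and 0 fell (3.7% called, against 14.0% of all genes), with a median of 0.20. None passed with library totals alone, where the median was 0.09, nor without control 1, control 3 or CPN 2, while 13 rose without control 2 and 2 rose without CPN 1 or CPN 3. In that group 71 were positive with TMM and 54 with library totals alone. With TMM 14 higher and 0 lower had an unadjusted p under 0.05 (17.3%, against 26.3% of all tested genes). DESeq2 called 1 respiratory chain or ATP synthase gene higher and 14 lower, and 8 cytosolic genes higher and 0 lower, where limma-voom called 2 and 13, and 6 and 0. Near-identical copies of the cytosolic genes can share reads, so their values are uncertain. The members' median of -0.08 lay between those of the respiratory chain and cytosolic genes.

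**Figure D4:**
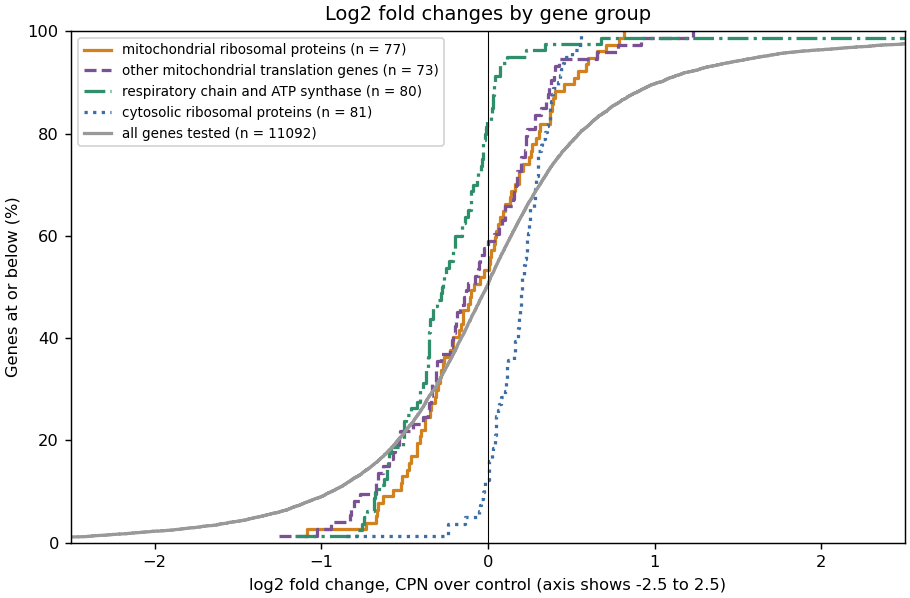
Cumulative share of tested genes (y axis, percent) by log2 fold change, CPN over control (x axis, without the far tails), for the members, the partner genes, the respiratory chain and ATP synthase genes, the cytosolic ribosomal protein genes and all tested genes. The members' curve is steeper around 0 than that of all genes, with 2.6% of members beyond 1 log2 unit against 19.3% of all genes, and crosses 0 between the respiratory chain and cytosolic curves.

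Among the 68 members with a promoter window in the RefSeq table, 39 (57.4%) held at least 1 of 4 motifs searched on both strands from 250 bases before to 50 after the start, against 37.9% of the 8482 tested genes with a window. The ETS core CCGGAAG was in 25 members (36.8%), against 21.8% of tested genes. The YY1 motif AAGATGGC was in 12 (17.6%), against 5.9%, and the NRF1 core GCGCATGCG in 7 (10.3%), against 4.5%. The E-box CACGTG, bound by Myc, was in 5 members (7.4%), against 12.3% of tested genes. Matches of different motifs overlapped in 0 member windows, and a match is a description of letters, not of binding.

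**Figure D5:**
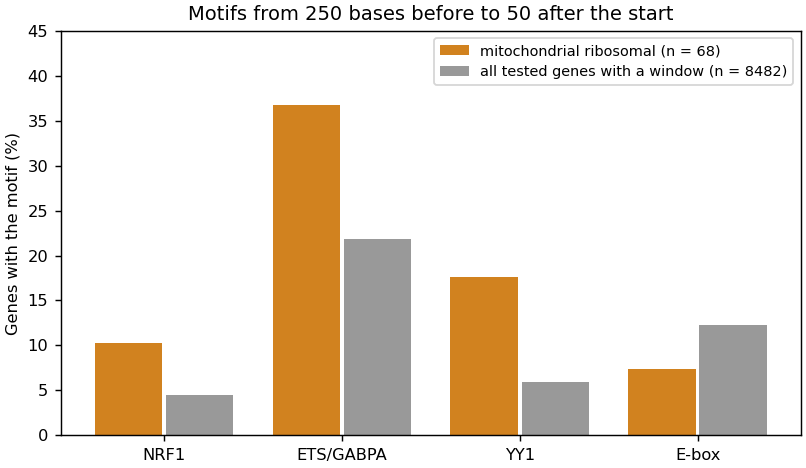
Share of genes (y axis, percent) with each motif (x axis) from 250 bases before to 50 after the RefSeq start, for the 68 members with a window and the 8482 tested genes with one. The bars of members are the higher for NRF1, ETS/GABPA and YY1, and the lower for the E-box.

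The 7 NRF1 matches are shown with 10 bases on either side, 5′ to 3′ on the gene's strand on GRCm38.p6, because NRF1 is a factor named for its action on respiratory genes. Capitals mark GCGCATGCG or, where the match is on the other strand, its reverse complement. Where a gene has several matches, 1 is shown. They lie at chr11:97041437-97041465 (Mrpl10), chr7:105811080-105811108 (Mrpl17), chr11:58171621-58171649 (Mrpl22), chr13:14613042-14613070 (Mrpl32), chr16:84735351-84735379 (Mrpl39), chr3:94443298-94443326 (Mrpl9) and chr17:35916646-35916674 (Mrps18b).
Mrpl10: cccagctccaCGCATGCGCatagcggccc
Mrpl17: ccgagttactGCGCATGCGtcctctgaga
Mrpl22: gcctcggactGCGCATGCGtatagtcagc
Mrpl32: gcggacttaaCGCATGCGCtcagcccgcg
Mrpl39: aaggagaggcGCGCATGCGcccccgcgtg
Mrpl9: aggcgcagctGCGCATGCGcggggtcctt
Mrps18b: aacggcccgaCGCATGCGCactgggagca

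Of these 7 genes, Mrpl17 fell and the others did not pass, with log2 fold changes between -0.27 for Mrpl10 and 0.46 for Mrps18b. The median log2 fold change was 0.37 with the NRF1 core and -0.12 without it, and 0.05 with the ETS core and -0.12 without it. It was -0.17 with the YY1 motif and -0.07 without it, and -0.17 with the E-box and -0.05 without it. These medians rest on 5 to 25 genes with a motif, and the differences were not tested.

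The members lie on 17 chromosomes. A protein-coding gene starts within 1000 bases upstream on the opposite strand of 18 members (23.4%), against 11.5% of 10212 tested protein-coding genes. Of the 17 such neighbours that were tested, 1 rose and 3 fell. Over all tested genes 7.62% rose and 6.39% fell, and the difference was not tested. Pnpla7, a lysophospholipase gene that starts 935 bases from Mrpl41, fell by 1.11 on the log2 scale (edgeR adjusted p = 0.0302), as Mrpl41 did. Klc4 by Mrpl2 and Ncapd2 by Mrpl51 fell by 1.81 and 1.35, and Apba3 by Mrpl54 rose by 1.14, while those 3 members did not pass. The last 500 bases of 6 members lie in an exon of another measured gene, and Mrpl24 is the called gene among them.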

How the data were processed

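The authors deposited 1 table of counts per gene for each of 6 samples. Bowtie2, bedtools and the build mm10 are named without versions or roles in the submitters' processing notes. The sources used here do not give the gene annotation, strand setting or treatment of multiply aligned reads. Per the labels' protocols, TRIzol RNA went into QuantSeq 3′ libraries. The tables held whole-number counts for 23282 entries, with 23238 symbols. The rRNA precursor Rn45s took 9.04% to 16.6% of a library and was kept in the totals. At these depths 3 counts correspond to 0.294 to 0.393 CPM.

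CPN was compared with control in R 4.3.3 with edgeR 4.0.16: TMM scaling, filterByExpr (minimum count 10, minimum total 15), the quasi-likelihood test and Benjamini-Hochberg adjustment over 11092 genes at 0.05. The common biological coefficient of variation was 0.356. Errors are SD over 3 samples, or SE for fold changes. Alternatives were other size factors, library totals alone, no Rn45s, DESeq2 1.42.0, limma-voom 3.58.1, other low-count filters, a replicate block, and leaving out each library in turn. Leaving out control 3 together with CPN 1, which had the fewest zeros, and the ratio of subunit sums without Mrps6 were added after the data were seen. The edgeR fit of all 6 samples was tested on counts simulated from its own dispersions. The alternative fits were not.

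The members, lists and naming rule were chosen with earlier results of these data known. Named genes were the called members, the 3 most positive and 3 most negative, the 3 with the highest CPM, the S18 paralogs, up to 3 per position in the ribosome, ribosome proteins outside the symbol rule, called partners and regulators. Some genes were named after their values were seen: neighbours, overlapping genes, the remaining exit-tunnel genes, Tufm and Tfb2m. Some cell type markers are not reported here. Coordinates are from GENCODE M21 (GRCm38) and promoters from RefSeq.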

Additional observations from a re-analysis of the deposited data

How the results depend on the processing

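Across 15 alternatives, no called member changed direction, but 0 of the 5 kept the call in all 6 fits that left out 1 library. Leaving out 1 library gave 884 to 1954 called genes, 0 to 2 members higher, 0 to 3 lower, 0 to 0 partners higher and 0 to 1 lower, and a members' median log2 fold change of -0.119 to -0.002. Without both control 3 and CPN 1, chosen after seeing the data, 446 genes, 0 members in either direction and 0 partners lower were called. Those fits have fewer samples. Library totals alone called 3 partners lower, and 690 genes higher and 914 lower (43.0% higher, against 845 and 709, or 54.4%, with TMM). DESeq2 called 1 partner higher, Myc. The gap between the lowest CPN and the highest control ratio of subunit sums was -0.0631 without Mrps6, also chosen after seeing the data, and 0.0495 with it. The causes were not tested. By scaling, filter and tool, 4 to 6 members were lower and 1 higher. Of the members not called, 3 passed in at least 1 setting.

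Same-numbered samples did not deviate together (correlations of -0.0742, 0.0139 and 0.0394). With 3 samples a group the deviations are tied to each other, so these values cannot show whether samples were prepared in pairs. No label states it. With the replicate block 2 members and 0 partners were lower, against 4 and 1 without it, so those calls depend on the model chosen. With 3 samples a group, the spread between libraries limits what can be called: the median SE of a member was 0.24 on the log2 scale.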
